A study of Mus musculus with 107 samples.

Results

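The interstitial collagens and the fibrotic matrix were followed here as 46 genes, chosen by symbol and matched to their mouse Entrez identifiers, of 27179 genes counted in every library. They comprised 7 fibrillar collagen chains, 3 chains of collagen VI, 6 other collagens, 9 genes of elastic fibres and microfibrils, 4 lysyl oxidases, 7 genes of fibronectin and matricellular proteins, 5 small leucine-rich proteoglycans and 5 genes of collagen processing and turnover. Levels are raw counts per 1000000 counts of the library (CPM), and changes are log2 fold changes (log2FC) fitted on the counts of the groups compared.

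Fibrillar collagens are secreted as triple helices, trimmed by proteases, and crosslinked outside the cell by lysyl oxidases into fibres that carry fibronectin, proteoglycans and matricellular proteins. Type I collagen is usually a trimer of 2 chains from Col1a1 and 1 from Col1a2. In healthy spinal cord this kind of matrix is found mainly in the meninges and around large vessels, whereas after injury it accumulates in the lesion core, where fibroblasts and pericytes are its best known producers.

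RNA bound to haemagglutinin-tagged ribosomes (RiboTag, an Rpl22-HA allele) was sequenced from cells with a C57BL/6 background. The neural progenitor cells (NPC) of every culture and graft came from 1 female mouse embryonic stem cell line in which SOX2-cre had switched the tag on, so they form 1 genetic source. NPC were left to differentiate for 4 days after EGF and FGF were lowered from 100 to 1 ng/ml (SPONT), in that medium with 100 ng/ml CNTF, with 1, 5, 10 or 20% fetal bovine serum (FBS), or with CNTF and 5% FBS together, with 4 libraries in each. Comparators were NPC of passage 15 (NPC P15, 4 libraries) and a further set of passage 15 labelled d2 (NPC P15 D2, 6). NPC in media passed through a pipette (NPC media, 5) were also used. The paper uses D for separate NPC derivations, and reports small expression differences after passage through a pipette. NPC were grafted into mice aged 8 weeks to 4 months, 2 days after a crush spinal cord injury (SCI) or a double crush (dSCI), or into uninjured cord. The paper describes these grafts as injected in a hydrogel carrier. They were recovered after 14 days in these 3 settings and after 5 days from the single crush, with 5 libraries each. Host astrocytes came from 73.12 Gfap-Cre-RiboTag mice, in which Gfap-Cre drives the tag in astrocytes, healthy (9 libraries) or at 14 days after crush SCI (5). Tagged ribosomes were precipitated from pieces of tissue, so transcripts of other cells can remain in these libraries, and in bulk samples fewer cells of a type and less RNA per cell cannot be told apart. The study's reporting describes its culture replicates as independent biological replicates, but the labels tie no library to a culture or cell stock, so p-values measure the spread between these libraries.

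Depth was 30473157 to 147764968 counts in 96 libraries read in pairs and 12286240 to 18085106 in 11 libraries of single reads, namely the 5-day grafts together with NPC P15 D2. The read type was inferred from how the count columns name their read data, whereas the paper's methods describe paired reads. Gfap, an astrocyte marker, was at 17899–28865 CPM in the host astrocytes and at 4402–22956 CPM in the grafts. In replicate 5 of the 14-day SCI grafts and replicate 5 of the dSCI grafts a single unnamed gene took 25.0% and 35.04% of all counts, against 4.08–12.1% in the other libraries of those groups. A gene was called higher or lower where the Benjamini-Hochberg adjusted p of edgeR's quasi-likelihood test fell below 0.01. The percentage after a count of members called is the background, the share of all genes tested in that comparison that were called in the same direction. Counts from other lists and of markers are to be read against the share given for the same comparison. Counts at an unadjusted p below 0.05 carry no share unless one is printed, and 3757 to 10899 genes per comparison passed that limit.

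Promoter windows, 250 bases before to 50 after the start site, were held for 28 of the 46 genes in a RefSeq table on GRCm38.p6. A 6-base SMAD motif, CAGACA or its reverse complement TGTCTG, was in the windows of 12 of the 28 (42.9%) and of 23.6% of all genes in the table. Shares for the other motifs searched on both strands were 35.7% against 41.1% for CCAAT, 14.3% against 15.7% for TATAAA, 10.7% against 16.6% for GGAATG (the TEAD motif) and 14.3% against 22.6% for CACCTG (the ZEB and SNAI motif). These matches are descriptions of letters and not of binding. The windows printed here belong to 4 genes whose values set the groups apart: Col1a2 (chr6:4505368-4505667, plus strand), which stayed low under serum, Col3a1 (chr1:45311288-45311587, plus strand), which was highest at 5% FBS, Col8a1 (chr16:57754688-57754987, minus strand), among the genes that rose most with serum, and Thbs2 (chr17:14694213-14694512, minus strand), which was lower at 20% FBS than in SPONT and rose with CNTF alone. The 6-base SMAD motif is in capitals.
Col1a2: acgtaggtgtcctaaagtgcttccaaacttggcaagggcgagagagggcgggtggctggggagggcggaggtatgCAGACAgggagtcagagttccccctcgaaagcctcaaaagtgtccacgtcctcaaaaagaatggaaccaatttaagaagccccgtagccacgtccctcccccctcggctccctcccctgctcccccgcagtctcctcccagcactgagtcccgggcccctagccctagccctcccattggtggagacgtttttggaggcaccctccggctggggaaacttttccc
Col3a1: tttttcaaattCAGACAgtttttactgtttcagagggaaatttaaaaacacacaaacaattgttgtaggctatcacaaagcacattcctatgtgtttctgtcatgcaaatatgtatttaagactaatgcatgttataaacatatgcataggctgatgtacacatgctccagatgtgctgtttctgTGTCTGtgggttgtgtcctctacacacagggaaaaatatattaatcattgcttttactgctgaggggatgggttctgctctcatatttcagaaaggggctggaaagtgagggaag
Col8a1: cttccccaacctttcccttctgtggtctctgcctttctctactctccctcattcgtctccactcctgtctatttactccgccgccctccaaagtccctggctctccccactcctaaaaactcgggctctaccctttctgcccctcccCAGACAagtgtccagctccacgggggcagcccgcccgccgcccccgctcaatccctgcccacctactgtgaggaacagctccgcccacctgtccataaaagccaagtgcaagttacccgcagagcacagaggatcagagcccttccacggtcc
Thbs2: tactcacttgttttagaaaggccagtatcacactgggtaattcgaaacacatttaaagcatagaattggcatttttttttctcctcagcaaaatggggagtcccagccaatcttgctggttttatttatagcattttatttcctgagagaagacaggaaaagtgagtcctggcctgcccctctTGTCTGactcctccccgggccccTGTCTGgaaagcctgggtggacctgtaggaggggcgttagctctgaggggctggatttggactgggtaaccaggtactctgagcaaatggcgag
The motif began at position −175 from the start site in Col1a2, at −239 and −65 in Col3a1, at −103 in Col8a1, and at −67 and −44 in Thbs2. These 4 were printed from among the 12 that hold it.

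Serum, a mixture of growth factors and other blood proteins, was given at 4 doses, which asks how far the matrix genes follow its concentration. At 20% FBS against SPONT, 37 of 45 members tested were higher (background over all genes tested 27.6%) and 2 were lower (27.9%). The median log2FC of the members was 3.00, against −0.03 for all genes. Summed over the 46 genes, the level went from 4754–5306 CPM without serum to 16058–17567 CPM at 20% FBS. All 4 lysyl oxidases, all 3 collagen VI chains and all 5 small leucine-rich proteoglycans rose.

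Lysyl oxidase (Lox), which crosslinks collagen and elastin, was at 0.195, 0.241, 0.236 and 0.470 CPM in the 4 SPONT libraries and at 177, 122, 178.6 and 254 CPM at 20% FBS. Every library with serum lay above every SPONT library, and the log2FC of 9.27 ± 0.32 (SE, n = 4 per group) was the highest of any member. Loxl1 and Loxl2, its relatives in crosslinking, had log2FC of 5.25 and 6.87, whereas Loxl3 rose by 0.56. The short-chain collagen Col8a1 went from 0.322–0.387 CPM to 68.9–79.9 CPM (log2FC 7.65 ± 0.11). Decorin (Dcn), a proteoglycan that binds collagen fibrils, was at 0.386–0.469 CPM in SPONT, 0.564–2.85 CPM at 1% FBS, and 45.95, 48.5, 49.7 and 118 CPM at 20% FBS (log2FC 7.22 ± 0.39). Fibronectin (Fn1), on which cells assemble other matrix, rose from 84.8, 107.2, 106 and 96.0 CPM to 1685.3, 1709, 1713 and 1249 CPM, a log2FC of 3.97 ± 0.13.

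Periostin (Postn), a matricellular protein of scars, rose from 0.391–0.545 to 10.8–19.8 CPM (log2FC 4.83), and Tgfbi, a secreted protein induced by TGF-beta, from 0.195–0.402 to 17.7–20.3 CPM (log2FC 6.00). Fibrillin-1 (Fbn1), the core of microfibrils, was at 11.4–16.6 CPM and then 101.7–143 CPM. The members already abundant moved less. Sparc, a collagen-binding matricellular protein, rose from 2222–2660 to 6653–7497 CPM (log2FC 1.47), and Serpinh1, the collagen chaperone HSP47, from 1281–1397 to 2805–2885 CPM (log2FC 1.05). Per kilobase of exon these 2 stayed the highest members in every serum group, with Sparc at 1885 and Serpinh1 at 1161 FPKM, which is CPM per kilobase of exon, at 20% FBS.

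Elastin (Eln), the rubber-like core of elastic fibres, and Thbs2, an inhibitor of angiogenesis, were the 2 members lower at 20% FBS than in SPONT. Eln did not follow the dose in 1 direction. It was at 71.1, 49.5, 58.9 and 55.8 CPM in SPONT, at 358, 248, 247 and 148 CPM at 1% FBS, and at 24.5, 27.1, 26.02 and 40.9 CPM at 20% FBS. It was thus higher in all 4 libraries at 1% FBS than in any SPONT library (log2FC 2.11 ± 0.23, adjusted p = 0.00017) and lower in all 4 at 20% FBS (log2FC −1.03 ± 0.17, adjusted p = 0.00025). Thbs2 fell from 6.26–8.25 CPM to 2.00–4.31 CPM (log2FC −1.41).

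**Figure D1:**
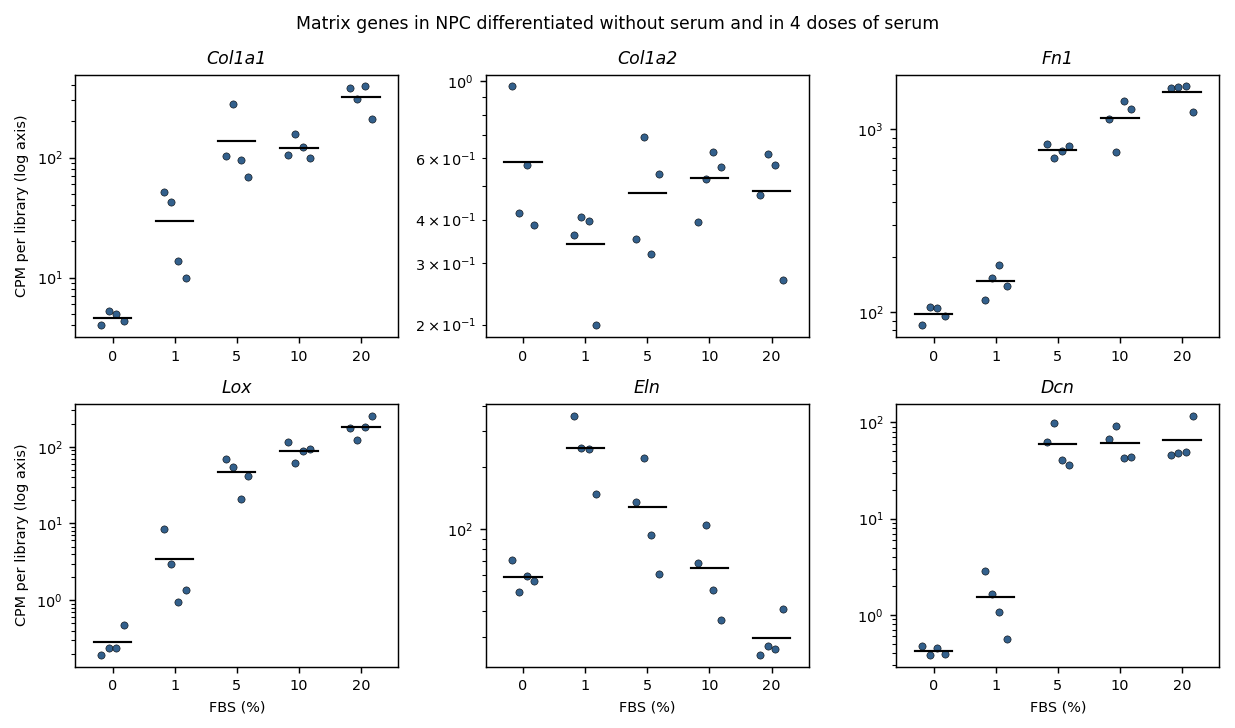
CPM on a log axis against FBS concentration (%) for Col1a1, Col1a2, Fn1, Lox, Eln and Dcn, with a point for each of 4 libraries and a line at the mean. The mean of Lox rises at every dose, Dcn changes little from 5% FBS on, Eln peaks at 1% FBS, and Col1a2 stays below 1 CPM at every dose.

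Step by step, most of the change lay between 0 and 5% FBS. From SPONT to 1% FBS, 22 of 46 members were higher (background 5.63%) and 2, Fbln1 and Emilin1, lower (3.15%). Among the largest rises were those of Col15a1 (log2FC 4.17), Lox (3.59) and Col8a1 (3.40). Fap, a surface protease of activated fibroblasts, was at 0–0.0553 CPM in SPONT, 0.221–1.01 CPM at 1% FBS and no more than 0.0848 CPM at 20% FBS. It was called higher at 1% FBS, but with 0 to 4 counts per SPONT library the size of its change is not given. From 1 to 5% FBS 32 of 46 were higher (17.4%) and none lower (13.7%), led by Dcn (5.29), Col14a1 (4.11) and Fmod (3.83). By edgeR 2 members were lower at an unadjusted p below 0.05, and DESeq2 called none. The count of 22 rested on few libraries, since it was 11 without 1% FBS replicate 2, 12 without SPONT replicate 4 and 13 without SPONT replicate 3. Without 1% FBS replicate 1, 1% FBS replicate 3, SPONT replicate 3 or SPONT replicate 4 none of the 2 lower calls was made, and 1 was made without 1% FBS replicate 2, while without 5% FBS replicate 2 there were 2 lower members from 1 to 5% FBS.

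From 5 to 10% FBS 3 of 45 members were higher, Mfap5 (log2FC 1.06), Tgfbi (0.82) and Pcolce (0.59), beside a background of 0.869%. None was lower (0.954%) by edgeR or DESeq2, although 2 had an unadjusted p below 0.05. All 3 calls were close to the threshold and were lost when 5% FBS replicate 1 or 3, or 10% FBS replicate 1, 3 or 4, was left out, whereas DESeq2 called 13 higher. From 10 to 20% FBS 5 of 45 were higher (2.12%) and none lower (2.27%), with 3 lower at an unadjusted p below 0.05 and none by DESeq2. The 5 were Mfap5 (1.48), Col1a1 (1.38), Bgn (1.36), Ecm1 (1.07) and Loxl1 (0.66), and they fell to 2 without 20% FBS replicate 2 or 3 and to 3 without replicate 1. One member became lower without 10% FBS replicate 4 or 20% FBS replicate 4. Mfap5, a microfibril protein, was at 0.0691–0.251, 0.237–0.388, 0.857–1.24, 2.03–2.44 and 5.77–7.10 CPM at 0, 1, 5, 10 and 20% FBS, and apart from the 2 lowest doses no 2 of these ranges overlapped. The highest mean of 27 members was at 20% FBS, of 7 at 10%, of 6 at 5% (Col3a1, Col11a1, Col6a3, Col15a1, Col18a1 and Lum), of 3 at 1% (Eln, Thbs2 and Fap) and of 3 without serum (Col1a2, Fbln1 and Fbln2).

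The 2 chains of type I collagen did not move together. Col1a1 (chr11:94936224-94953042, GRCm38) was at 4.00, 5.28, 4.97 and 4.34 CPM in SPONT, at 52.1, 42.9, 13.9 and 10.0 CPM at 1% FBS, at 103, 278, 94.8 and 69.0 CPM at 5%, at 104.4, 157.9, 124 and 98.4 CPM at 10%, and at 377, 307, 391 and 211 CPM at 20%. At 20% FBS every library exceeded every library of the lower doses except 5% FBS replicate 2. Col1a2 (chr6:4505618-4541543) was at 0.387–0.964 CPM in SPONT and at 0.470, 0.619, 0.574 and 0.269 CPM at 20% FBS. Its ranges overlapped, with a log2FC of −0.32 ± 0.37 and an adjusted p of 0.46, whereas Col1a1 had 6.07 ± 0.22 (edgeR adjusted p = 1.8e-09).

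The chains can be set against each other as reads per base of their annotated exons, which come to 6563 bases for Col1a1 and 12426 for Col1a2. The exon length joins all annotated transcripts, so the absolute ratio depends on it but the comparison of groups does not. Col1a1 over Col1a2 had a median of 18.8 (7.85–23.9) in SPONT, 148 (66.5–272) at 1% FBS and 1388 (939–1518) at 20% FBS. Col1a2 had 18 to 47 counts in each library of the serum doses, above the floor of 3 counts. In healthy host astrocytes the ratio was 0.290 (0.217–0.443), the only group with more Col1a2 than Col1a1, and in injured hosts 2.09 (1.73–2.94). Grafts lay at 5.30 (2.98–20.0) in uninjured cord, 21.2 (5.54–32.3) at 5 days in SCI, 7.90 (6.45–13.9) at 14 days in SCI and 5.68 (3.65–8.72) in dSCI. No library with serum alone overlapped any graft or host library in this ratio.

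**Figure D2:**
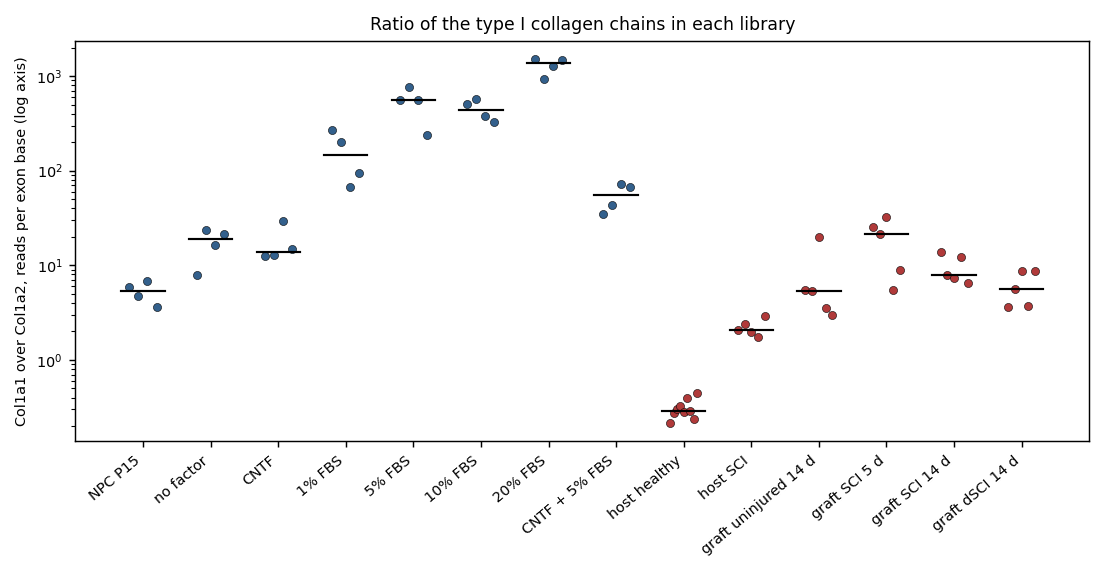
Reads per exon base of Col1a1 over Col1a2 in each library of 14 groups, on a log axis with a line at the median of each group. Cultures with serum lie highest, up to 1518 at 20% FBS, and healthy host astrocytes lie below 1.

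The other fibrillar chains rose. Col5a1 was at 17.8–24.3 CPM in SPONT and 282–322 CPM at 20% FBS, while Col5a2, with which it forms type V collagen, went from 0.370–0.774 to 3.80–11.4 CPM. Both rose, with log2FC of 3.78 and 3.73, and Col5a3 rose by 2.07. Col3a1, the chain of type III collagen, was at 4.60–6.00 CPM in SPONT, 27.8, 109, 27.9 and 17.2 CPM at 5% FBS, and 17.04, 14.8, 17.7 and 41.6 CPM at 20%, a log2FC of 2.01 ± 0.31 at the highest dose against SPONT. Col11a1 was high throughout, at 82.3–121 CPM and then 165–212 CPM (log2FC 0.86). Fap was removed by the filter on low counts in this comparison.

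Markers of other cell types moved with serum. The 12 fibroblast markers summed to 57.1–65.1 CPM in SPONT and 811–1441 CPM at 20% FBS, where 10 of 11 tested were higher and osteoglycin (Ogn) alone averaged 535 CPM. Acta2, the smooth muscle actin of myofibroblasts, went from 1.22–2.17 to 1915–2790 CPM. The 10 pericyte and smooth muscle markers, of which it is 1, did not all rise. From 1 to 5% FBS Acta2, Tagln and Cnn1 were called higher (log2FC 3.58, 2.27 and 3.75) and Cspg4 lower (−1.24). All 8 astrocyte markers tested summed to 11886–15539 CPM and then 5768–6382 CPM, with 7 lower, and all 3 endothelial markers tested and 1 of 3 myeloid markers were higher, with the 9 myeloid markers at no more than 4.89 CPM in sum at 20% FBS. Their part in the result was not tested.

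Genes around the members moved too. Of 20 basement membrane genes tested 16 were higher (Lama4 7.53, Npnt 5.14) and 2 lower (Lama1 −2.72, Agrn −0.86), and of 24 other enzymes and chaperones of collagen synthesis 18 were higher (Adamts14 6.19) and 1 lower (Mia3 −0.21). Of 17 TGF-beta and CCN regulators 13 were higher, led by Ccn5 (9.79) and Ccn2 (9.51), and Ltbp4 was lower (−0.37). Matrix proteases and inhibitors had 10 of 17 higher (Adamts5 4.78) and 2 lower (Adamts9 −1.27), and receptors for collagen and fibronectin 12 of 17 higher (Itga1 5.79) and 1 lower (Lair1 −4.71). Spontaneous differentiation itself had gone mostly the other way from NPC P15, the only NPC set it was tested against. Against NPC P15, 9 of 45 members were higher in SPONT (29.8%) and 21 lower (27.4%), with a median log2FC of −0.51, and Tgfbi (−5.91), Loxl1 (−3.69) and Fbn2 (−3.45), a fibrillin of development, fell most, while Mfap4 (5.83), Fmod (4.92) and Thbs2 (4.85) rose most. In another passage 15 set, labelled d3 and not tested, means of Col3a1, Postn and Bgn were 1.95, 0.247 and 1.83 CPM. These lay below their SPONT means of 5.50, 0.491 and 5.61 CPM, whereas the other members called lower had higher means there than in SPONT.

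CNTF, a cytokine that promotes astrocytes, was given alone and with 5% FBS, which asks whether it changes the response to serum. Alone, against SPONT, 17 of 45 members were higher (10.8%) and 6 lower (9.15%), a median log2FC of 0.12. A pair of collagen VI chains, Col6a1 and Col6a2, rose most, while the third, Col6a3, was not called (log2FC −1.10). Col6a1 was at 14.9, 10.8, 9.32 and 7.98 CPM in SPONT and at 102.4, 111, 94.3 and 114 CPM with CNTF (log2FC 3.31 ± 0.18), and Col6a2 had a log2FC of 3.70. Ecm1 (2.64), Tgfbi (2.44) and Thbs2 (2.25) followed, Thbs2 going from 6.26–8.25 to 31.5–38.1 CPM. Fbln1 (−1.18), Mfap4 (−0.94), Ecm2 (−0.80), Eln (−0.77), Bgn (−0.54) and Loxl3 (−0.35) fell, while Col1a1 was at 2.89–4.22 CPM and was not called.

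With serum the picture turned. Of 45 members tested none was higher with CNTF and 5% FBS than with 5% FBS alone (11.3%) and 31 were lower (12.0%), a median log2FC of −1.20. By edgeR 2 members were higher at an unadjusted p below 0.05, and DESeq2 called 2, Col18a1 and Plod2 having the highest log2FC at 1.09 and 0.46. One member was called higher without 5% FBS replicate 1 or without replicate 2. Col3a1 was at 27.8, 109, 27.9 and 17.2 CPM with serum and 1.32, 1.73, 1.89 and 1.71 CPM with both (log2FC −4.85 ± 0.60). Col1a1 was at 103, 278, 94.8 and 69.0 CPM and then 10.6, 12.3, 12.4 and 11.8 CPM (−3.61 ± 0.41), and Lox at 69.3, 54.3, 20.6 and 41.5 CPM and then 3.55, 2.58, 2.52 and 2.94 CPM (−4.08 ± 0.35). In all 3 the groups were apart, and with both agents each library was above every SPONT library for Col1a1 and Lox and below every one for Col3a1.

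Lumican (Lum), a proteoglycan that spaces collagen fibrils, fell from 1.90–12.1 CPM to 0–0.101 CPM, where 0 to 8 counts per library leave the size of its fall (fitted log2FC −6.71 ± 0.83) uncertain. Dcn fell from 35.9–99.8 to 2.88–3.94 CPM and Postn from 5.81–16.6 to 0.291–0.808 CPM. Fn1 fell less, from 828, 700, 762 and 810 CPM to 235, 312, 261 and 266 CPM (−1.60 ± 0.10). Some members did not pass the test, with Col5a1 at 186–241 and 195–244 CPM (log2FC −0.01 ± 0.10), Col11a1 at −0.06, Loxl3 at 0.00 and Sparc at −0.31. Col1a2 was at 0.320–0.688 and 0.324–0.582 CPM. The ratio of Col1a1 to Col1a2 reads was 559 (241–765) with 5% FBS and 55.2 (34.6–72.3) with both.

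The difference between the effect of CNTF with serum and without it was tested as an interaction over the 4 groups. It was negative and called for 35 of 45 members (12.6%) and positive for none (10.3%), although 2 were positive at an unadjusted p below 0.05 and 2 by DESeq2, and 1 was called positive without 5% FBS replicate 2. Its most negative values were in Col15a1 (−6.26), Lum (−5.93, near the floor with both agents), Col6a2 (−5.55), Col3a1 (−4.95), Dcn (−4.59), Col6a1 (−4.53) and Tgfbi (−4.50). Col6a1 and Thbs2 were raised by CNTF given without serum but not when it was added to serum. Col6a1 was at 94.3–114 CPM with CNTF, 78.2–117 CPM with serum and 40.2, 45.7, 43.4 and 43.6 CPM with both, and Thbs2 was at 31.5–38.1 CPM with CNTF, 1.77–7.80 CPM with serum and 1.34–2.02 CPM with both. The fall of Thbs2 from serum alone to both did not pass the test (log2FC −1.38, adjusted p = 0.025), whereas its interaction did (−3.64 ± 0.45).

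**Figure D3:**
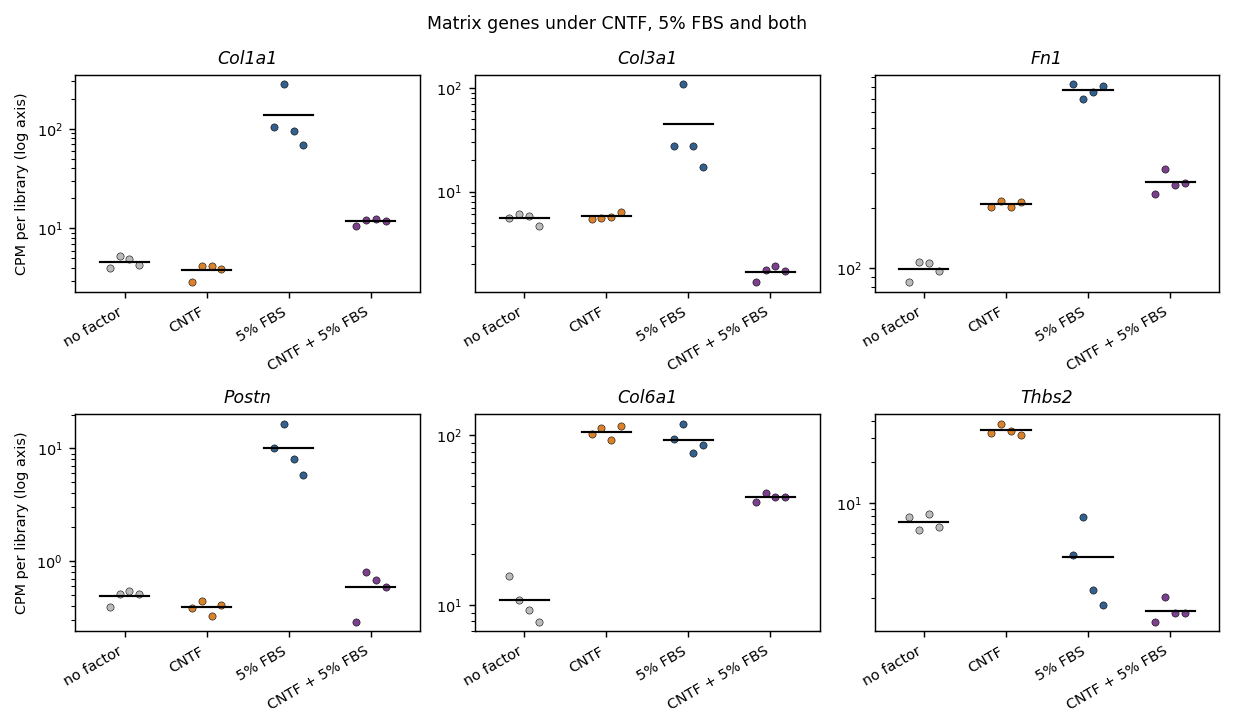
CPM on a log axis for Col1a1, Col3a1, Fn1, Postn, Col6a1 and Thbs2 in cultures with no factor (SPONT), CNTF, 5% FBS and both, with a point per library and a line at the mean. Col6a1 and Thbs2 are raised by CNTF alone, and all 6 genes have lower means with both than with serum alone.

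Marker sums fell as well, from 452–635 to 280–303 CPM for fibroblasts and from 393–539 to 202–219 CPM for pericytes and smooth muscle, with 6 of 10 and 4 of 9 tested markers lower. Astrocyte markers were at 15575–22551 and 17724–19832 CPM, with 1 of 8 lower. The part of these changes was not tested. Of 17 TGF-beta and CCN regulators 8 were lower (Ltbp2 −2.58) and none higher, and of 23 enzymes and chaperones of collagen synthesis 6 were lower (Pcolce2 −1.85) and 1 higher (Bmp1 0.52). Basement membrane genes had 2 higher and 7 lower of 20, proteases and inhibitors 2 higher and 5 lower of 18, and receptors 4 higher (Itgav 1.16) and 4 lower (Itga11 −2.41) of 18.

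Host astrocytes of injured and healthy cord were compared to see the response of resident cells. At 14 days after SCI 40 of 46 members were higher than in healthy cord (22.2%) and 2, Fbln1 (−0.88) and Sparc (−0.67), were lower (18.8%), with a median log2FC of 2.27. All 7 fibrillar collagens, all 3 collagen VI chains and all 6 other collagens rose. Loxl1, Ecm2, P4ha2 and Plod2 were the 4 members not called. The summed level nevertheless ran from 3843–6289 CPM to 4299–7734 CPM, since Sparc held 3136–5307 CPM of it in healthy and 1507–3802 CPM in injured cord.

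Postn was at 0.432, 0.978 and 1.82 CPM (lowest, median and highest of 9) in healthy hosts and at 66.5, 140, 65.1, 99.7 and 37.4 CPM after SCI, a log2FC of 6.11 ± 0.31. Col6a1 was at 0.0257, 1.12 and 2.25 CPM and then at 58.0, 48.4, 45.4, 41.9 and 9.26 CPM (5.08 ± 0.52), and Col6a2 had a log2FC of 5.38 ± 0.20. Col1a1 was at 13.9, 20.0 and 36.1 CPM and then at 276, 510, 292, 367 and 248 CPM (3.75 ± 0.23). In each of these genes the groups were apart. Fn1 went from 3.99, 6.14 and 14.4 CPM to 103, 153, 113, 127.5 and 81.2 CPM (3.65 ± 0.25), and Col3a1 from 11.0, 19.4 and 39.5 CPM to 212, 420, 248, 353 and 144 CPM (3.63 ± 0.29).

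Col1a2 was abundant in healthy hosts, at 101.3, 131 and 155 CPM, and reached 249, 401, 280, 402 and 160 CPM after SCI, a smaller rise than that of Col1a1 (0.97 ± 0.16). Thbs2 behaved likewise, at 101.4–129 CPM and then 216–273 CPM (0.82 ± 0.07). Ecm1 (4.29), Col18a1 (3.93), a basement membrane collagen that yields endostatin, Fmod (3.82) and Col8a1 (3.70) also rose, and the third collagen VI chain, Col6a3, rose by 2.84. Lox went from 0.848–4.93 to 4.00–9.34 CPM (1.45), with overlap between the groups.

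Related genes rose widely in the same hosts. Of 21 basement membrane genes 18 were higher (Col4a6 3.35, Lama4 3.09) and none lower, and of 23 proteases and inhibitors 17 were higher, led by Mmp12 (11.98) and Mmp3 (7.10), and 3 lower (Timp3 −0.95). TGF-beta and CCN regulators had 14 of 17 higher (Ccn5 6.99) and 2 lower (Ltbp1 −0.68, Tgfb2 −0.62). Enzymes and chaperones had 15 of 24 higher (Loxl4 3.09) and 1 lower (P4ha1 −1.11), and receptors 10 of 18 higher (Itga5 2.92) and 2 lower (Itgb8 −1.30). Other cell types moved too, as 8 of 12 fibroblast markers were higher (36.8–70.8 against 106–143 CPM in sum), all 9 myeloid (11.6–25.1 against 235–1808 CPM), 6 of 10 pericyte and smooth muscle (112–165 against 251–336.5 CPM) and all 5 Schwann (4691–7638 against 18790–27811 CPM, a list that includes Mbp, shared with oligodendrocytes). Of 8 astrocyte markers 4 were lower. Their part in the result was not tested.

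The early graft was compared with NPC of the same read type. At 5 days in SCI against NPC P15 D2, 37 of 46 members were higher (35.6%) and 4 lower (33.8%), with a median log2FC of 3.11. All 6 of the non-fibrillar collagens outside collagen VI, all 4 lysyl oxidases and all 5 small leucine-rich proteoglycans rose, as did 6 of 7 fibrillar chains. Col1a1 was at 9.07–13.3 CPM in NPC and at 3411, 7212, 10757, 3402 and 2830 CPM in grafts, a log2FC of 9.07 ± 0.41 (SE, n = 6 and 5). Col1a2 was at 0.745–1.53 CPM and then 253, 643, 631, 1162 and 601 CPM (9.29 ± 0.43). The 2 chains thus rose by like amounts here, unlike in serum, and Fmod (10.69) and Col8a1 (9.69) had larger fitted values that rested on 2 to 5 and 3 to 12 counts per NPC library.

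Per kilobase of exon, Col1a1 was the highest member in the 5-day grafts at a mean of 841 FPKM, ahead of Sparc at 678 and Col3a1 at 330 FPKM. The 7 fibrillar chains took 5864–18554 CPM of these libraries against 443–491 CPM in NPC P15 D2. Fbn2 (−2.10), Serpinh1 (−1.13), Matn2 (−0.96) and Fbln1 (−0.62) fell. Serpinh1 was at 1370–1457 CPM in NPC and 545, 827, 930, 469 and 474 CPM in grafts, so this collagen chaperone was lower in every graft library while 15 of 16 collagen chains were higher. Fbn1 (64.6–192.2 CPM in grafts) and Col11a1 (67.3–211 CPM) were not called.

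The later graft was compared with NPC media, so its values and those of the early graft have different controls. At 14 days in SCI 32 of 45 members were higher (28.8%) and 8 lower (23.7%), with a median log2FC of 3.17 against 0.16 for all genes. Fmod (10.49), Col8a1 (8.19, on 0 to 19 counts per NPC media library) and Mfap5 (8.12) had the largest fitted values, and Col1a1 (7.97) and Col1a2 (7.88) again rose by like amounts. Serpinh1, Fbln2, Fbln1, Emilin1, Matn2, Fbn2, Col11a1 and Pcolce fell, by −2.29, −3.01, −2.14, −2.08, −1.48, −1.28, −0.98 and −1.21. Beside them, all 9 myeloid, 7 of 11 fibroblast, 5 of 6 pericyte and smooth muscle and 6 of 8 endothelial markers were higher, and their part was not tested. Fbln2, a fibulin of basement membranes and elastic fibres, was at 171.4–190 CPM in NPC media and 18.0, 13.1, 17.2, 9.59 and 26.9 CPM in grafts.

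Between 5 and 14 days in SCI 18 of 46 members were lower (2.58%) and none higher (2.72%), with a median log2FC of −1.55. One member was higher at an unadjusted p below 0.05 and 1 by DESeq2, which called 32 lower. Col1a1 was at 3411, 7212, 10757, 3402 and 2830 CPM and then at 700, 422, 496, 666 and 1743 CPM (−2.51 ± 0.52, edgeR adjusted p = 0.0081). Postn went from 541, 1210, 1324, 265 and 452 CPM to 74.3, 25.9, 34.97, 26.7 and 84.4 CPM (−3.71 ± 0.53), and Col8a1 from 162–551 to 18.7–47.3 CPM (−3.17). Fap went from 12.5–53.7 to 0–3.33 CPM. Its fitted log2FC of −3.98 rested on 0 to 201 counts per 14-day library, so its size is uncertain. In none of these 4 did the groups overlap. Col1a2 was at 253–1162 and 95.2–512 CPM and did not pass (−1.53, adjusted p = 0.10), and Sparc was at 1429–3716 and 1001–3355 CPM. The 5-day libraries are taken to be single reads and the 14-day libraries pairs, so time and read type cannot be told apart. The count of 18 was 10 without replicate 1 or 2 of the 14-day grafts and 11 without replicate 2 of the 5-day grafts, and 1 member was called higher without 5-day replicate 4 or 14-day replicate 5.

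Beside these changes, pericyte and smooth muscle markers summed to 420–1462 and 319–445 CPM at 5 and 14 days, fibroblast markers to 565–1004 and 231–346 CPM, and myeloid markers to 594–13105 and 487–1502 CPM. Of these, 3 of 10, 3 of 12 and 0 of 9 were lower, and 1 of 10 pericyte and smooth muscle markers was higher. Their part in the result was not tested. Enzymes and chaperones of collagen synthesis had 11 of 24 lower (Adamts14 −3.16) and none higher, basement membrane genes 6 of 21 (Lamb1 −3.15), receptors 5 of 18 (Itgb5 −1.70) and TGF-beta and CCN regulators 3 of 17 (Ccn4 −2.25), again with none higher. Proteases had 6 of 24 lower, led by Mmp10 (−8.48) and Mmp13 (−6.14), and 2 higher (Timp4 1.23). In the 5-day grafts against NPC P15 D2 the proteases had been 16 higher and 2 lower of 22 (Mmp13 9.83, Ctsk 9.14), and TGF-beta and CCN regulators 14 higher of 17 (Ccn5 10.99). Basement membrane genes were 11 higher and 3 lower of 19, enzymes 9 higher and 8 lower of 24 (P4ha3 9.41), and receptors 8 higher and 6 lower of 18. Over all genes tested there 35.6% were higher and 33.8% lower, and the enzymes were near both shares. Markers were higher in all 9 myeloid, 7 of 10 fibroblast and 5 of 7 pericyte and smooth muscle genes tested.

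Grafts in 3 settings at 14 days address the effect of the tissue around them. Between SCI and uninjured cord no member of 46 was called higher (2.09%) or lower (2.55%) by edgeR, with a median log2FC of −0.10, while 7 and 10 members had an unadjusted p below 0.05 and DESeq2 called 3 and 1. Of all 15813 genes tested, 4336 had an unadjusted p below 0.05 by edgeR, and DESeq2 called 915 genes higher and 1002 lower. Without SCI replicate 5 there were 1 and 4 calls, and without uninjured replicate 3 there was 1 lower. Col1a1 was at 641, 1530, 538, 1239 and 972 CPM in uninjured cord and 700, 422, 496, 666 and 1743 CPM in SCI (log2FC 0.06 ± 0.43, adjusted p = 0.95). The most negative log2FC was that of Dcn, at 294, 771, 324, 780 and 488 CPM and then 152, 88.8, 149, 191.7 and 217 CPM (−1.42 ± 0.34, adjusted p = 0.014), groups that did not overlap. The most positive was that of Ecm1 (1.01, adjusted p = 0.021).

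The double crush stood higher. Against SCI 22 of 46 members were higher in dSCI (1.29%) and none lower (0.538%), with a median log2FC of 1.74, and against uninjured cord 16 were higher (2.55%) and none lower (1.64%), with a median of 1.46. In neither comparison was any member lower at an unadjusted p below 0.05 or by DESeq2, which called 30 and 32 higher. Both comparisons use the same 5 dSCI libraries. Col1a2 had the largest log2FC against SCI. It was at 95.2, 101.1, 128.04, 103.9 and 512 CPM in SCI, at 5702, 1572, 1077, 2405 and 666 CPM in dSCI (3.39 ± 0.65, adjusted p = 0.0092), and at 223, 546, 51.0, 660 and 618 CPM in uninjured cord. Against uninjured cord its difference did not pass (2.58, adjusted p = 0.024), although every dSCI library was above every uninjured one.

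Col1a1 was at 11002, 4712, 4937, 4704 and 3069 CPM in dSCI, with a log2FC of 2.66 ± 0.46 against SCI (adjusted p = 0.0060) and 2.72 ± 0.38 against uninjured cord (adjusted p = 0.0015). Col3a1 was at 8249, 3394, 4715, 2596 and 3036 CPM, against 403–1308 CPM in SCI and 742–1392 CPM in uninjured cord (2.57 and 2.35). For both genes the dSCI libraries lay above all others at 14 days. Loxl1 (2.82), Lum (2.82), Col14a1 (2.81), Mfap4 (2.63), Col8a1 (2.63), Tgfbi (2.62) and Dcn (2.50) followed against SCI. Dcn, at 1963, 759, 680, 1284 and 308 CPM in dSCI, overlapped with uninjured cord and was not called against it (1.07, adjusted p = 0.12). Per kilobase of exon Col1a1 and Sparc were the highest members in dSCI, at means of 866 and 853 FPKM. The mean of Col1a1 was 123 FPKM in SCI and 150 FPKM in uninjured cord. Its dSCI mean includes replicate 1 at 11002 CPM, against 3069–4937 CPM in the other libraries.

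The counts against SCI rested on single libraries. They were 0 without SCI replicate 1, 2 or 3 or without dSCI replicate 2, 1 without SCI replicate 4, 4 without dSCI replicate 4, 7 without dSCI replicate 1, 11 without dSCI replicate 3, and 27 without SCI replicate 5, and 29 without both libraries numbered 5, an alternative chosen after seeing the data. Against uninjured cord the 16 became 6, 8 and 10 without uninjured replicate 1, 2 and 4 and 7 without dSCI replicate 2 or 3. Beside these changes, fibroblast markers summed to 495–2173 CPM in dSCI, 231–346 CPM in SCI and 209–957 CPM in uninjured cord, endothelial markers to 77.1–727, 27.7–82.6 and 51.2–416 CPM, and myeloid markers to 880–9288, 487–1502 and 178.6–1051 CPM. Against SCI 4 of 12, 4 of 8 and 0 of 9 of them were higher, and against uninjured cord 0, 0 and 4. Their part in the result was not tested. Of 21 basement membrane genes 6 were higher than in SCI (Col4a2 2.32) and 7 higher than in uninjured cord (Col4a2 2.47), and of 17 TGF-beta and CCN regulators 4 (Ccn2 2.20) and 7 (Ltbp2 4.06), with none lower in either list.

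**Figure D4:**
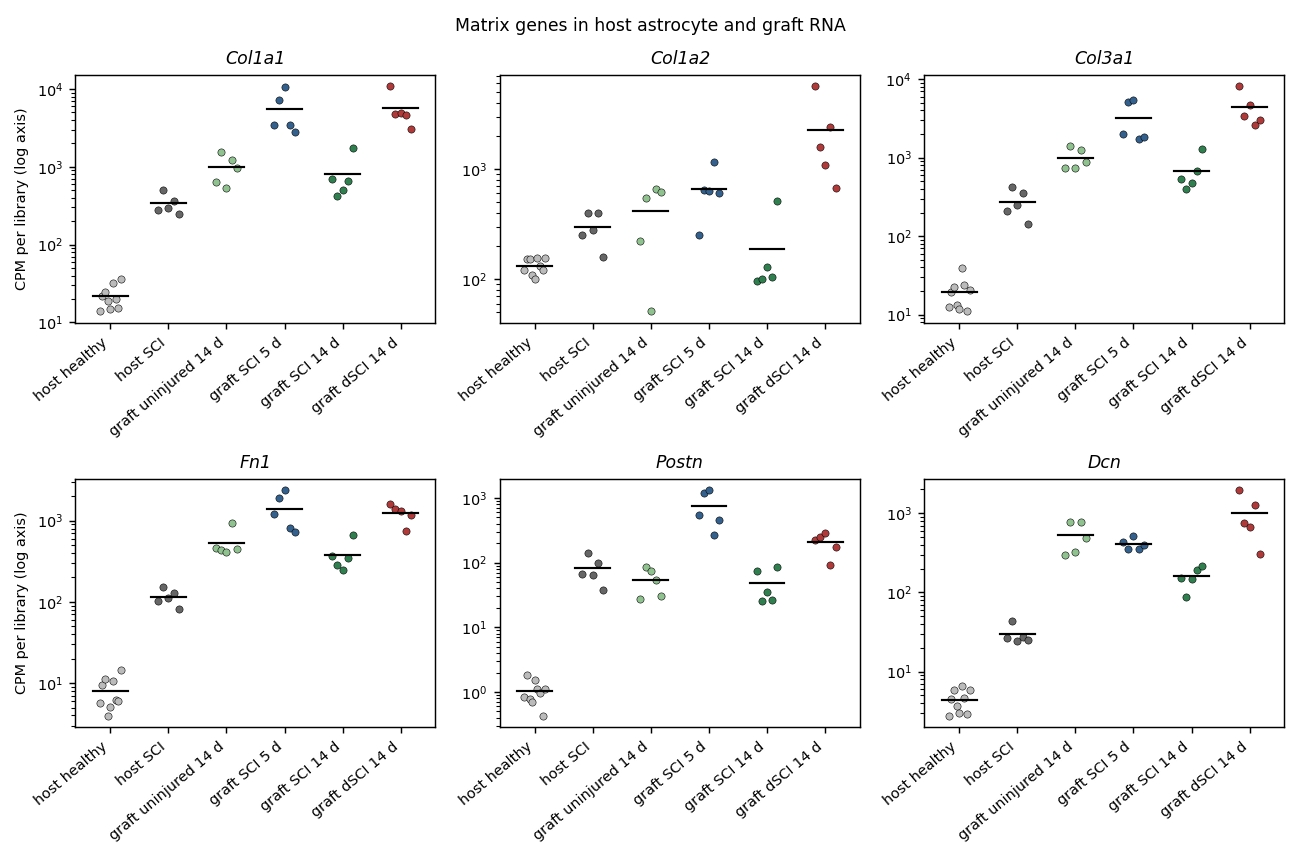
CPM on a log axis for Col1a1, Col1a2, Col3a1, Fn1, Postn and Dcn in healthy and injured host astrocytes and in grafts in uninjured cord, SCI at 5 and 14 days and dSCI at 14 days, with a point per library and a line at the mean. Healthy hosts have the lowest mean of each of the 6 genes, and in Col1a1, Col3a1 and Fn1 the 5-day SCI and dSCI grafts have the highest.

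Grafts and host astrocytes of the same injury at 14 days were set against each other. The SCI grafts had 13 of 46 members higher than the hosts (6.79%) and 3 lower (7.84%), with a median log2FC of 0.20. Emilin1, a microfibril glycoprotein, was at 142, 108, 129, 97.7 and 80.0 CPM in grafts and 15.5, 18.0, 15.1, 16.8 and 14.3 CPM in hosts (2.74 ± 0.14). Dcn was at 152, 88.8, 149, 191.7 and 217 CPM against 26.6, 43.6, 24.5, 27.6 and 24.9 CPM (2.43 ± 0.28), and Col6a1 at 63.8–393 against 9.26–58.0 CPM (2.41 ± 0.47). Fn1 (1.74), Col11a1 (1.53), Serpinh1 (1.19) and Col8a1 (1.34, adjusted p just below 0.01) were also higher in the grafts. Thbs2 was the lowest relative to hosts, at 59.99, 41.7, 58.2, 43.7 and 87.9 CPM against 245, 222, 226, 273 and 216 CPM (−2.03 ± 0.24), followed by Fbln5 (−1.13) and Col16a1 (−0.71).

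Col1a1 at 422–1743 CPM in grafts and 248–510 CPM in hosts did not pass (1.29 ± 0.40, adjusted p = 0.033), nor did Col3a1 (1.33, adjusted p = 0.022), Col1a2 (−0.59) or Postn (−0.72). The 3 lower members became 7 without SCI graft replicate 5. Cell origin, the Cre line, and the hydrogel and injection that came with the grafts differ together here and cannot be told apart. The time since injury possibly differs with them, as grafts were placed 2 days after it. Fibroblast markers had 6 of 12 higher in grafts, pericyte and smooth muscle 3 of 10 and endothelial 2 of 8, while all 5 Schwann and 6 of 8 astrocyte markers were lower. Their part in the result was not tested. The other matrix lists were mixed, with 3 higher and 0 lower of 21 basement membrane genes, 3 and 4 of 24 enzymes and chaperones, 4 and 2 of 23 proteases and inhibitors, 4 and 1 of 18 receptors, and 4 and 2 of 17 TGF-beta and CCN regulators.

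**Figure D5:**
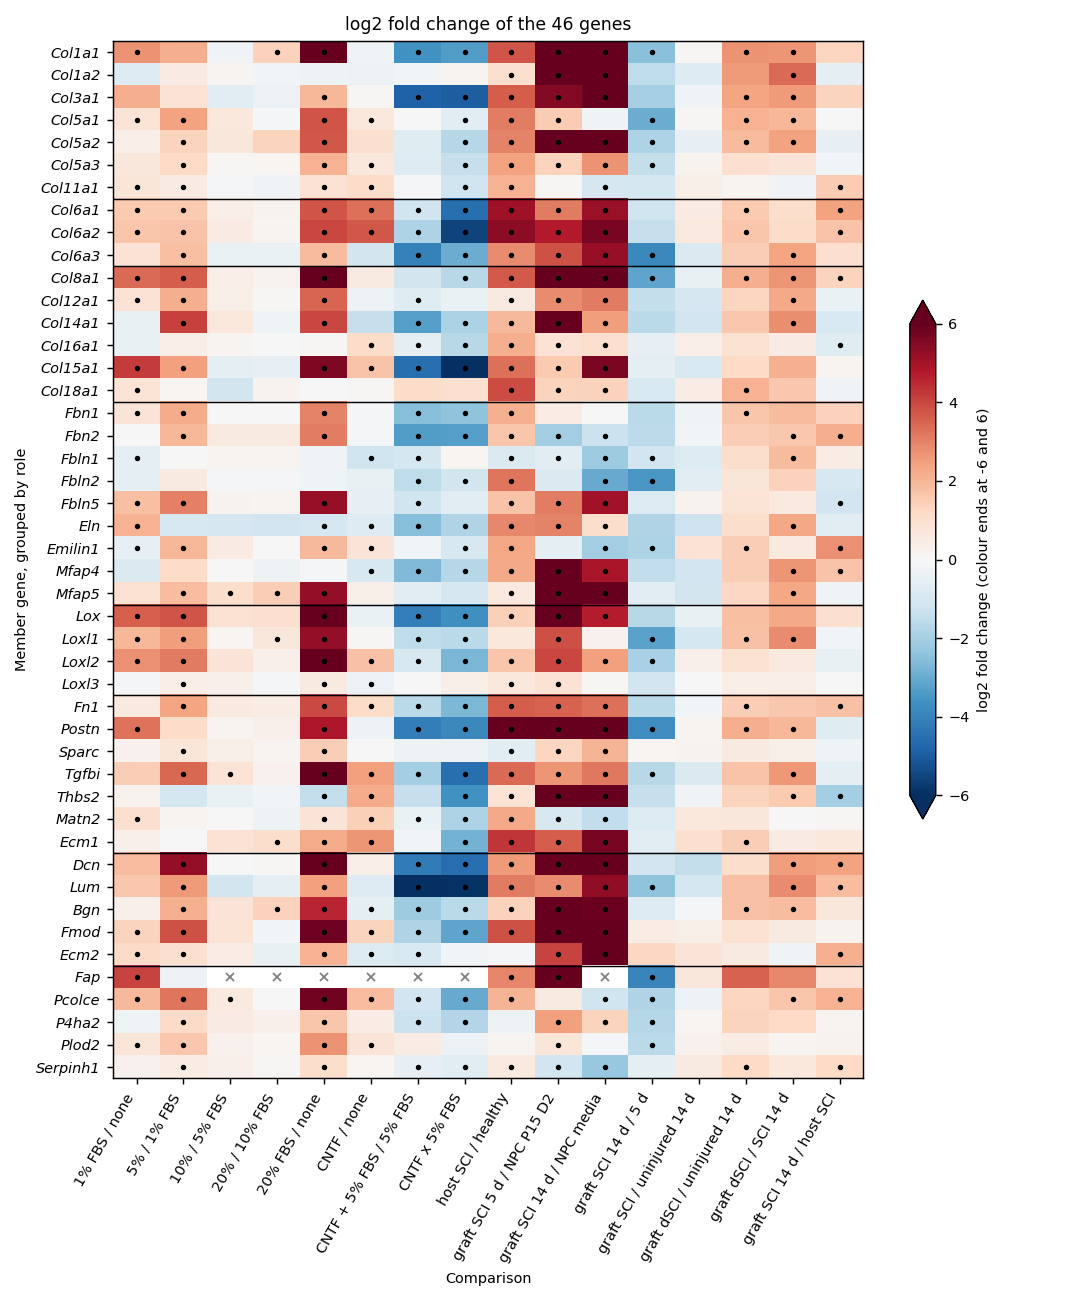
Log2FC of each of the 46 members (rows) in 16 comparisons (columns), blue for lower and red for higher with colours ending at −6 and 6, a dot where the adjusted p was below 0.01 and a grey cross where the filter removed the gene. Columns of serum against SPONT, of grafts against NPC and of injured against healthy hosts are mostly red, and those of CNTF with serum and of 14 against 5 days mostly blue.

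Side by side, some members moved differently with serum, grafting and host injury, whereas Col8a1 was among the larger rises in each. Its mean was 0.358 CPM in SPONT and 74.4 CPM at 20% FBS. It was 0.418 CPM in NPC P15 D2 and 356 CPM in 5-day grafts, and 0.898 and 13.4 CPM in healthy and injured hosts. Lox had a log2FC of 9.27 at 20% FBS, 7.26 in the 5-day graft and 1.45 in injured hosts. Thbs2 had −1.41, 7.91 and 0.82, Col1a2 −0.32, 9.29 and 0.97, and Fmod 5.83, 10.69 and 3.82. The graft rises of Lox, Fmod and Col8a1 rested on 3 to 8, 2 to 5 and 3 to 12 counts per NPC P15 D2 library, so their sizes are uncertain. Thbs2 and Col1a2 were low there as well, at 0.533–1.25 and 0.745–1.53 CPM. Serpinh1 had 1.05, −1.13 and 0.60, and Sparc 1.47, 1.29 and −0.67. These comparisons have different controls, and the differences between them were not tested.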

How the data were processed

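Each library was made from ribosome-bound RNA of RiboTag cells. The deposited values are raw counts per Entrez gene, which the authors produced with Trimmomatic, HISAT2 against mm10 and featureCounts, per the labels and the study's methods. Even counts were in excess in the libraries read in pairs, so both mates of a pair were probably counted. All 107 libraries hold the same 27179 genes, and 25275 Entrez identifiers matched a symbol.

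From these counts, CPM was computed for levels, and FPKM over joined GENCODE exons (21572 genes with a length) for levels between genes. Each comparison was fitted on its own groups with edgeR 4.0.16 in R 4.3.3 (TMM scaling, filterByExpr at a minimum of 10 counts, quasi-likelihood test, Benjamini-Hochberg adjustment over all genes tested, threshold 0.01), checked on simulated data. Another count scaling shifted the median of all genes by −0.01 to 0.07 (log2). Every pair of replicates differed by more than sampling noise (lowest chi-square per degree of freedom 2.48 over 209 pairs). Counting intervals and the floor of 3 counts cover counting error only.

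The members and lists were chosen with earlier results of these data known. Genes named are members, with values per library for 24 of them fixed by name where called and for up to 3 with the largest called log2FC in each direction at a mean of at least 1 CPM. Up to 2 per direction are named from other lists, besides markers. Values of members that were not called are given as such and were added after they were seen. Alternatives were DESeq2 1.42.0, its size factors, no filter, a minimum of 50 counts, a replicate block, and leaving out each library. NPC of other passages, IGF, and the hydrogel groups entered no comparison.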

Additional observations from a re-analysis of the deposited data

Results flagged for a closer look

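The change of the response to CNTF when serum was present, an interaction tested with edgeR over 4 groups of 4 libraries, was called for 35 members, all negative. Among collagens it was −3.35 for Col1a1, −4.95 for Col3a1, −0.67 for Col5a1, −1.70 for Col5a2, −1.40 for Col5a3, −1.18 for Col11a1, −4.53 for Col6a1, −5.55 for Col6a2, −2.98 for Col6a3, −1.66 for Col8a1, −1.92 for Col14a1, −1.67 for Col16a1 and −6.26 for Col15a1 (log2). Among elastic fibre genes and lysyl oxidases it was −2.43 for Fbn1, −3.29 for Fbn2, −1.10 for Fbln2, −1.78 for Eln, −0.95 for Emilin1, −1.71 for Mfap4, −3.68 for Lox, −1.61 for Loxl1 and −2.73 for Loxl2. Among fibronectin, matricellular proteins, proteoglycans and processing genes it was −2.71 for Fn1, −3.87 for Postn, −4.50 for Tgfbi, −3.64 for Thbs2, −1.86 for Matn2, −2.83 for Ecm1, −4.59 for Dcn, −5.93 for Lum, −1.62 for Bgn, −3.14 for Fmod, −3.02 for Pcolce, −1.76 for P4ha2 and −0.62 for Serpinh1.

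Dixon's test was run on 24 members in 16 groups, 384 sets of values, and found a library apart from its group in 38, where chance gives about 1 in 20. Replicate 5 of the 14-day SCI grafts was highest for Col1a1 (1743 CPM), Col1a2 (512), Col12a1 (68.7), Fn1 (668), Fbn1 (62.3) and Loxl1 (47.4). Replicate 1 of the dSCI grafts was highest for Col1a1 (11002 CPM), Col11a1 (101.2), Col12a1 (294) and Lox (182). Replicate 4 stood apart in uninjured cord for Fn1 (929 CPM) and in the 5-day grafts for Eln (636 CPM).

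In the serum series, replicate 4 at 20% FBS was highest for Col3a1 (41.6 CPM), Eln (40.9), Dcn (118) and Lum (3.39) and lowest for Col5a1 (282) and Fn1 (1249), while replicate 1 was lowest for Tgfbi (17.7). Replicate 2 at 5% FBS was highest for Col1a1 (278 CPM), Col3a1 (109) and Fap (1.35). Single libraries also stood apart for Lox in SPONT (0.470 CPM), Fbn1 at 1% FBS (30.7), Serpinh1 at 10% FBS (lowest, 2253) and Fbn1 with CNTF and 5% FBS (25.97).

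In NPC, single libraries stood apart for Plod2 in NPC P15 (57.6 CPM), for Col1a1 (13.3) and Thbs2 (1.25) in NPC P15 D2, and for Fbn1 (lowest, 33.1), Loxl1 (46.5) and Thbs2 (0.758) in NPC media. In healthy hosts they did for Col3a1 (39.5 CPM), Fbln2 (9.69), Eln (15.9) and Tgfbi (8.12), the last pair in the same library, and in injured hosts replicate 2 was highest for Tgfbi (75.0) and Dcn (43.6).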

How the results depend on the processing

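No called log2FC of a member changed sign under any alternative. DESeq2 kept 416 of 416, its size factors 411 of 417, no filter 412 of 417, a minimum of 50 counts 409 of 415, and leaving out 1 library 3742 of 4215. Without both libraries numbered 5, an alternative chosen after seeing the data, all 22 called members of dSCI against SCI were called, and the count rose to 29. TMM scaling kept 656 of 736 group levels within 1 SD and moved 80, by ratios of 0.90 to 1.27. Graft and serum-step counts are limited by the spread of 4 or 5 libraries, and the 5-day grafts and NPC P15 D2 by shallower single reads.

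The replicate numbers were not taken to pair the samples, as in no comparison did every same-numbered pair correlate above 0.1. The highest were at 10 against 5% FBS (0.04–0.51, median 0.43), where the block called 678 genes higher and 734 lower (from 133 and 146). With a replicate block 74 of 417 called log2FC lost their call. The block gave 0 lower (from 2) at 1% FBS against SPONT, 2 lower (from 0) at 5 against 1% FBS, 12 higher and 3 lower (from 3 and 0) at 10 against 5% FBS, 3 higher (from 5) at 20 against 10% FBS, 1 higher (from 0) for CNTF with serum, 10 lower (from 18) at 14 against 5 days, 0 higher for dSCI against uninjured cord (from 16) and against SCI (from 22), 1 lower (from 2) in hosts, and 8 higher and 1 lower (from 13 and 3) for SCI grafts against hosts. The cause of these and of the following changes was not tested.

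DESeq2 called 13 members higher (from 3) at 10 against 5% FBS, 8 (from 5) at 20 against 10% FBS, 2 (from 0) for CNTF with serum, 2 (from 0) for a positive interaction, 1 higher and 32 lower (from 0 and 18) at 14 against 5 days, 3 higher and 1 lower (from 0 and 0) for SCI against uninjured cord, 32 higher (from 16) for dSCI against uninjured cord and 3 lower (from 2) at 1% FBS. No filter gave 5 higher at 10 against 5% FBS, 2 higher for CNTF with serum, 3 lower at 1% FBS and 1 lower for SCI against uninjured cord. Size factors and the minimum of 50 counts each gave 1 higher for CNTF with serum.

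Leaving out 1 library gave 11–23 higher and 0–2 lower at 1% FBS, 0–2 lower at 5 against 1% FBS, 0–4 higher at 10 against 5% FBS, 2–5 higher and 0–1 lower at 20 against 10% FBS, 0–1 higher for CNTF with serum and for the interaction, 0–1 higher and 10–25 lower at 14 against 5 days, 0–1 higher and 0–4 lower for SCI against uninjured cord, 6–15 higher for dSCI against uninjured cord, 0–27 for dSCI against SCI, and 2–7 lower for SCI grafts against hosts. In dSCI against SCI the omissions that ended the calls left Col1a1 at a log2FC of 2.32–2.75 with adjusted p of 0.010–0.026 by edgeR.

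Over all genes, DESeq2 called 1387 higher and 1168 lower (edgeR 841 and 471) at 1% FBS, 780 and 832 (133 and 146) at 10 against 5% FBS, 945 and 942 (325, and 2.27% of 15311 genes tested) at 20 against 10% FBS, 2124 lower (1361) with CNTF, 908 and 865 (416 and 395) at 14 against 5 days, 915 and 1002 (330 and 404) for SCI against uninjured cord, 995 and 736 (405 and 261) for dSCI against uninjured cord, 816 and 458 (204 and 85) for dSCI against SCI, and 1812 higher (1125) for SCI grafts against hosts.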

Other observations

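Members were also measured in groups that entered no comparison. Embryonic stem cells had means of 664 CPM Fn1, 435 CPM Col18a1 and 363 CPM Sparc, but 6.47 CPM Col1a1 and 7.61 CPM Fbln2. NPC of passage 5 had 69.0 CPM Fn1, 52.9 CPM Col18a1 and 377 CPM Fbln2, and NPC of passage 30 had 39.2 CPM Col18a1 and 209 CPM Fbln2. The passage 15 set labelled d3 had 3092 CPM Serpinh1 and 414 CPM Fbln2. NPC left with IGF had 2232 CPM Sparc, 48.8 CPM Mfap4 and 39.8 CPM Eln.

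In NPC passed through a pipette in a hydrogel, in it after 4 hours, or in media, the mean of Serpinh1 was 2007, 1934 and 2350 CPM and that of Emilin1 484, 442 and 593 CPM.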
